A study of Mus musculus with 5 samples.

Results

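The 6 bone morphogenetic protein ligands Bmp2, Bmp3, Bmp4, Bmp5, Bmp6 and Bmp7 were followed through the cells of the mouse colon mesenchyme, the connective tissue beneath the intestinal epithelium. They were chosen by gene symbol, and all 6 were among the 20355 genes of the deposited tables. Cells came from the colons of untreated C57/BL6 mice aged 10 weeks and were profiled by Drop-seq, a droplet method in which captured polyadenylated RNA is counted by molecular tags (unique molecular identifiers, UMIs). The epithelium had been stripped with EDTA and DTT before Collagenase XI and Dispase released the mesenchymal cells, so the preparation itself set part of the share of epithelial cells. There were 5 droplet collections of 1 group: 1A and 1B from biological replicate 1, and 2A, 2B and 2C from biological replicate 2. No treatment, mutant or second condition was present, and the comparisons are between cell classes within these samples. The labels do not give the number of animals per replicate, so p-values measure only the spread between these samples, part of which may be technical.

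BMPs are secreted members of the TGF-beta superfamily. They bind pairs of type I and type II serine/threonine kinase receptors, which phosphorylate SMAD proteins that enter the nucleus and raise target genes such as the Id family and the inhibitory SMADs. In the intestine BMP signalling restrains stem cell renewal and favours differentiation of the epithelium, and mesenchymal cells are known both as a source of the ligands and as a source of secreted antagonists such as Gremlin 1 that keep the crypt base low in signal. Bmp2 and Bmp4 form a closely related pair, Bmp5, Bmp6 and Bmp7 belong to another subgroup, and Bmp3 is an atypical member that can oppose the others.

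Retained cells numbered 5982 of 7935 barcodes (860 to 1726 per collection), with medians of 1330 UMIs and 756.5 genes per cell. The collections held 1636550 to 3345732 UMIs. Of 5976 distinct retained barcode sequences, 6 occurred in more than 1 collection. Clusters were called "like" a class from marker genes, since no deposited cell annotation was used, and 10 classes had enough cells to test. Fibroblast-like cells made up 52.32% of the cells (3130) and 44.82% of the UMIs. Their 8 markers summed to 29545 and 27633 CPM (UMIs scaled to equal totals) in the 2 replicates. Only 22 cells were epithelial-like. A cluster of 247 cells raised 6 pericyte and 8 smooth muscle markers, with 3 and 5 of them among its 10 leading genes, so it is called here the Rgs5-led cluster. Among fibroblast-like cells, 6 clusters were told apart and are named here by leading or marker genes: the F3/Plau state (323 cells), the Rbp4 state (328), the Saa3 state (439), the Ces1d state (713), the Cd248 state (738) and the Has1 state (589). None of the Ces1d list was among the 10 leading genes of its cluster (Ccl11 and Grem1 led), although 5 of the list were raised. The ligands and the genes of their pathway, apart from processing enzymes, were kept out of the clustering.

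All 6 ligands were detected, at very different depth. Bmp4 gave 4482 UMIs in 2239 cells (37.43% of retained cells). Bmp2 gave 1659 UMIs in 884 cells and Bmp5 1306 UMIs in 878 cells. The remaining members were sparse, with 267 UMIs of Bmp7 in 233 cells, 105 of Bmp6 in 101 cells and 49 of Bmp3 in 45 cells. Statements on Bmp3 and Bmp6 rest on these few molecules. Counts are of tagged molecules, not corrected for length, so levels are compared between cells for the same gene and not between genes. On GRCm38, Bmp2 lies at chr2:133552159-133562885 (plus strand), Bmp3 at chr5:98854415-98884396 (plus), Bmp4 at chr14:46383520-46390669 (minus), Bmp5 at chr9:75775364-75900310 (plus), Bmp6 at chr13:38345107-38500302 (plus) and Bmp7 at chr2:172868012-172940321 (minus). Bmp4 overlaps Gm15217 and Gm15222, Bmp5 overlaps Gm47723 and Gm26903, and Bmp6 overlaps 4930579J19Rik and Txndc5. How the authors counted overlapping genes was not given in the sources used here, so reads shared with these neighbours could not be told apart.

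The 250 bases upstream of the annotated starts of Bmp4 and Bmp5 are shown, these being the ligands with an entry in the sequence table used that were also tested between classes. Their levels had a Pearson r of 0.87 (log2(CPM + 10) over 15 cell groups that share libraries, a description). They are from RefSeq on GRCm38.p6: Bmp4 at chr14:46390670-46390919 (minus strand) and Bmp5 at chr9:75775115-75775364 (plus strand). The Bmp4 stretch is 63.2% G or C and the Bmp5 stretch 42.8%, where the median of 32851 promoters in the same table is 52.4%. Both are printed 5′ to 3′ in lower case.
Bmp4: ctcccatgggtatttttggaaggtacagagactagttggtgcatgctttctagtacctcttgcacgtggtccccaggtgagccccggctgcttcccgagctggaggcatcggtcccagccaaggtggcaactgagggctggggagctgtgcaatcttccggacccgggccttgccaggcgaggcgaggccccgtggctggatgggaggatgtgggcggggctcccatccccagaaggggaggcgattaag
Bmp5: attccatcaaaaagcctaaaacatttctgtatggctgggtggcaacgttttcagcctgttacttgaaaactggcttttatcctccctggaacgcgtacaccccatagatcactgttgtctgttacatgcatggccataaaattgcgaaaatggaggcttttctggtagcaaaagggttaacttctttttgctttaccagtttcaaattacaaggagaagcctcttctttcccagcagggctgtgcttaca
Searched on both strands, neither held the GLI motif GACCACCCA (0.225% of all promoters), the forkhead motif TGTTTAC (3.17%), the TATA motif TATAAA (12.4%) or the palindromic BMP-SMAD motif GGCGCC (9.59%). This says only that these letters are not in these windows.

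Most ligand molecules were in fibroblast-like cells. They held 87.57% ± 0.181 of the Bmp4 UMIs, 84.86% ± 0.268 of the Bmp2 UMIs and 89.03% ± 1.24 of the Bmp5 UMIs (mean ± SD, n = 2 biological replicates). For the sparse members the shares were 91.75% ± 1.19 (Bmp3), 89.05% ± 6.46 (Bmp6) and 89.85% ± 2.23 (Bmp7). Each of these exceeded the 44.82% of all UMIs that came from the same cells.

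Bmp4, the ligand with the most UMIs, was at 744.15 and 765.99 CPM in fibroblast-like cells of collections 1A and 1B and at 988.5, 909.53 and 982.38 CPM in 2A, 2B and 2C. Smooth muscle-like cells, the next class, had 212.79, 318.19, 331.03, 194.36 and 449.84 CPM in the same order. The ranges did not overlap, and all 3 collections of replicate 2 lay above both of replicate 1 in fibroblast-like cells. Set against the 9 remaining classes, averaged on the log scale, Bmp4 was higher in fibroblast-like cells by 3.79 ± 0.11 on the log2 scale (SE, edgeR quasi-likelihood F test, Benjamini-Hochberg adjusted p = 6.163e-274). Against smooth muscle-like cells alone the difference was 1.82 ± 0.18 (adjusted p = 2.094e-21).

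Bmp2, the close relative of Bmp4, was at 307.95, 307.43, 327.96, 329.5 and 271.86 CPM in fibroblast-like cells of collections 1A to 2C. The Rgs5-led cluster had 102.23, 120.29, 166.99, 115.43 and 273.26 CPM. The ranges overlapped at collection 2C, where the Rgs5-led cluster was as high as fibroblast-like cells. Over the replicate sums, Bmp2 was higher in fibroblast-like cells by 3.57 ± 0.15 against the mean of the others (adjusted p = 6.949e-127) and by 1.42 ± 0.25 against the Rgs5-led cluster (adjusted p = 1.8738e-07).

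Bmp5 was at 268.74, 230.83, 266.97, 251.89 and 253.47 CPM in fibroblast-like cells, against 175.24, 166.01, 141.87, 136.05 and 249.91 CPM in smooth muscle-like cells. Here too the ranges overlapped through collection 2C, the highest for smooth muscle-like cells. The fitted difference was 4.07 ± 0.16 against the mean of the other classes (adjusted p = 7.605e-140) and 0.83 ± 0.23 against smooth muscle-like cells (adjusted p = 0.0032736).

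**Figure D1:**
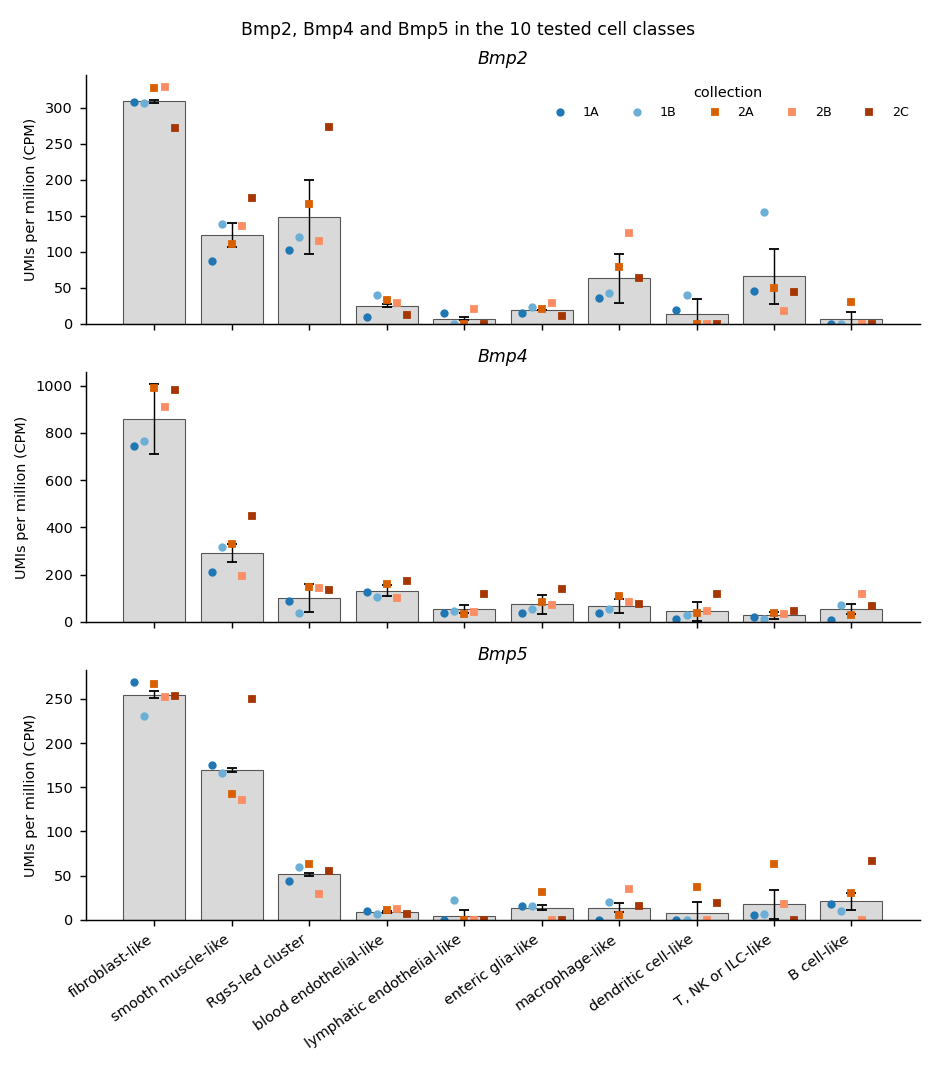
Levels of Bmp2, Bmp4 and Bmp5 in CPM (y axis) in the 10 tested classes (x axis). Points are the 5 collections, bars the mean of the 2 biological replicates and error bars its SD; fibroblast-like cells lie at 744.15 to 988.5 CPM for Bmp4, above every other class.

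Only these 3 ligands passed the filter on low counts between classes. Bmp2 and Bmp5 reached its minimum of 46.22 CPM in both replicates in fibroblast-like cells, smooth muscle-like cells and the Rgs5-led cluster, and Bmp4 in blood endothelial-like cells as well, so a high level in at least some of these classes was a condition of being tested. Of 30 ligand and class pairs, 10 were higher and 8 lower. Over all genes tested, 23.3% of pairs were higher and 13.4% lower. In fibroblast-like cells 3 of 3 were higher, where 35.1% of all genes tested were higher and 13.5% lower, so the count over 3 genes says little. The differences against the mean of the other classes fall under the same condition, and classes with few UMIs lower that mean. Against the next class alone the differences were 1.42 (Bmp2), 1.82 (Bmp4) and 0.83 (Bmp5). The median difference of all genes tested was 0.184 on the log2 scale in fibroblast-like cells. Bmp3, Bmp6 and Bmp7 were not tested between classes: in fibroblast-like cells they were at 9.85 ± 1.02, 20.5 ± 2.66 and 52.1 ± 11.8 CPM (SD, n = 2), and smooth muscle-like cells held no UMI of any of them.

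Smooth muscle-like cells were the second class for Bmp4 and Bmp5. All 3 tested ligands were higher there than in the mean of the other classes: Bmp4 by 1.78 ± 0.23 (adjusted p = 5.363e-13), Bmp2 by 1.83 ± 0.36 (adjusted p = 3.975e-06) and Bmp5 by 3.15 ± 0.34 (adjusted p = 8.382e-19), where 18.3% of all genes tested were higher. Fibroblast markers were also present in these cells: the 8 markers stood at 7.31% to 64.4% of their fibroblast-like level (median 22.8%), and their sum was 7951.4 and 9399.4 CPM. The ligands stood at 33.9% (Bmp4), 40.0% (Bmp2) and 66.4% (Bmp5) of theirs. The part of fibroblast RNA in these values was not tested. With no mitochondrial limit on barcodes the 3 differences were smaller but still passed: 0.99 (Bmp4), 1.19 (Bmp2) and 1.89 (Bmp5).

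In the Rgs5-led cluster Bmp2 was at 148 ± 51.3 CPM, higher than the mean of the other classes by 1.99 ± 0.36 (adjusted p = 4.344e-07; 14.5% of all genes tested were higher). It did not differ beyond the spread from smooth muscle-like cells, at 124 ± 16.9 CPM (difference 0.15, adjusted p = 0.90122). The fibroblast markers stood at 3.82% to 19.2% of their fibroblast-like level in this cluster, while Bmp2 stood at 48.0%. Bmp4 and Bmp5 stood at 11.4% and 20.2%, and neither passed the test there (adjusted p = 0.09144 for Bmp5).

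Blood endothelial-like cells had Bmp4 at 125.3, 106.39, 161.64, 100.25 and 174.87 CPM in collections 1A to 2C. Each of these lay below the lowest collection of smooth muscle-like cells. The level was above the mean of the other classes by 0.67 ± 0.17 (adjusted p = 0.0004427, with 30.7% of all genes higher and 15.9% lower in these cells), but this did not pass without collection 1A (0.42, adjusted p = 0.09388) or with no mitochondrial limit (0.39, adjusted p = 0.07704). Bmp5 was lower in these cells, by -1.37 ± 0.46 (adjusted p = 0.007678), at 9.18 ± 1.12 CPM, a call lost without collection 2A (-1.19, adjusted p = 0.05449). Their fibroblast markers stood at 2.17% to 5.12% of the fibroblast-like level, and Bmp4 at 15.4%. Within the class, 4 endothelial clusters could be tested for Bmp4 and none passed in either direction (0 by edgeR and 0 by DESeq2, which gave no adjusted p for 2 of the 4), where 5.45% of all gene and cluster pairs were higher and 3.99% lower, although 2 of the 4 had an unadjusted p under 0.05. Means ran from 160 ± 41.6 CPM in endothelial cluster 3 to 71.6 ± 16.2 CPM in endothelial cluster 2.

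Bmp2 was found in some immune classes. Macrophage-like cells had 35.477, 43.49, 79.101, 125.68 and 64.091 CPM in collections 1A to 2C, higher than the mean of the other classes by 0.96 ± 0.30 (adjusted p = 0.003679), where 28.3% of all genes were higher. Bmp2 stood at 20.4% of the fibroblast-like level there, and the fibroblast markers at 3.09% to 7.83%. The T, natural killer or innate lymphoid-like class had 46.031, 154.75, 50.1, 17.358 and 44.444 CPM, with collection 1B far above the rest. Its difference of 0.94 ± 0.34 (adjusted p = 0.01711, 24.1% of all genes higher) was 0.24 (adjusted p = 0.7801) without collection 1B.

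This lymphoid class was made of 2 clusters, and Bmp2 differed between them. The smaller cluster (88 cells, led by Il5, Icos and Calca) had 263.1, 452.02, 144.1, 103.17 and 126.46 CPM of Bmp2, against 0, 54.045, 16.943, 0 and 0 CPM in the larger one (301 cells). Every collection of the smaller cluster lay above every collection of the larger, but on few molecules. The whole lymphoid class held 9, 23, 4, 1 and 3 Bmp2 UMIs in collections 1A to 2C. Tested as separate classes, an alternative chosen after seeing the data, the smaller cluster was higher than the mean of the other classes by 2.83 ± 0.40 (edgeR adjusted p = 2.4303e-11) and the larger lower, by -1.48 ± 0.58 (adjusted p = 0.033377). At an equal 500 UMIs per cell, 9 of 86 cells had a Bmp2 UMI in the smaller cluster (10.5%, 95% Wilson interval 5.6 to 18.7%) and 4 of 289 in the larger (1.38%, 0.54 to 3.5%). The fibroblast markers stood at 0.982% to 4.64% of their fibroblast-like level in the smaller cluster. Bmp2 stood at 79.6% of its own, the mean of 118% in replicate 1 and 41.6% in replicate 2.

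In the remaining classes the ligands were near or below the mean. The lymphoid class was low in Bmp4 (-2.08 ± 0.36, adjusted p = 7.435e-08). So were B cells (-1.17 ± 0.41, adjusted p = 0.0155), dendritic cells (-1.28 ± 0.42, adjusted p = 0.01003) and lymphatic endothelium (adjusted p = 0.01438). Of all genes tested, 16.2% were lower in the lymphoid class, 16.3% in B cell-like, 11.3% in dendritic cell-like and 13.1% in lymphatic endothelial-like cells. Bmp2 was lower in B cell-like and lymphatic endothelial-like cells, where it had 1 and 3 UMIs. Bmp5 was lower in lymphatic endothelial-like cells, where it had 2. Enteric glia-like cells had no call for any ligand. These 3 smaller Bmp4 differences were not stable. The call was lost in B cell-like cells without collection 1A, 2A or 2C (-0.84 to -0.99, adjusted p = 0.06124 to 0.1221), in dendritic cell-like cells without 1B (-1.11, adjusted p = 0.05643) and in lymphatic endothelial-like cells without 2A (-0.84, adjusted p = 0.06174). With no mitochondrial limit Bmp4 was higher, not lower, in dendritic cell-like cells (0.70, adjusted p = 0.01634). The Bmp5 call in lymphatic endothelial-like cells (-2.41 ± 0.84, adjusted p = 0.01516) was lost without 1A or 2A (-1.94 and -1.89, adjusted p = 0.07623 and 0.08857).

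**Figure D2:**
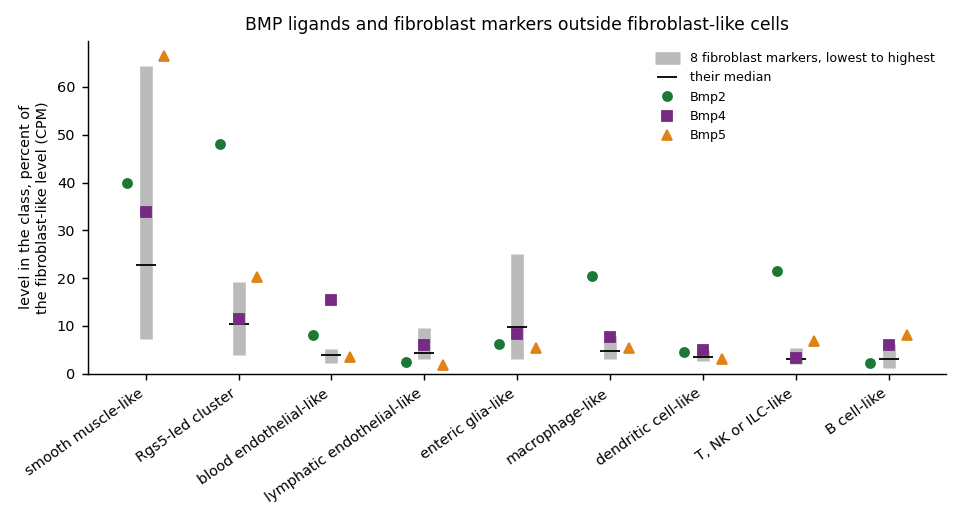
Levels of Bmp2, Bmp4 and Bmp5 in each class as percent of their level in fibroblast-like cells (y axis, ratio of CPM, mean of 2 replicates), beside the range and median of the 8 fibroblast markers in the same class. Above the marker range lie Bmp2 in the Rgs5-led cluster (48.0%), macrophage-like cells (20.4%), the lymphoid class (21.4%) and blood endothelial-like cells (8.2%), Bmp4 in blood endothelial-like cells (15.4%), and Bmp5 by a small margin in smooth muscle-like cells (66.4%), the Rgs5-led cluster (20.2%), the lymphoid class (6.83%) and B cell-like cells (8.13%).

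Shares of cells with a UMI were compared at equal depth, with B cell-like cells taken as a background. Whether the ligand UMIs of B cell-like cells were free RNA was not tested. Each cell was thinned to 500 UMIs, which left out 113 fibroblast-like and 12 B cell-like cells. Bmp4 was then seen in 1054 of 3017 fibroblast-like cells (34.9%, 95% Wilson interval 33.3 to 36.7%), against 8 of 217 B cell-like cells (3.69%, 1.88 to 7.1%). Bmp2 was seen in 10.6% and 0.461% of these cells, and Bmp5 in 10.9% and 1.38%. Median depth before thinning was 1286.5 UMIs in fibroblast-like and 1035 in B cell-like cells. Without thinning, 59.1% of fibroblast-like cells had a Bmp4 UMI, 22.5% a Bmp2 UMI and 24.1% a Bmp5 UMI. The intervals cover counting error only.

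Within fibroblast-like cells the ligands divided among the states in different ways. Bmp2 was highest in the F3/Plau state, Bmp3 in the Rbp4 state, and Bmp5 and Bmp7 in both of these. Bmp4 was high in the Rbp4, Cd248 and Ces1d states and lowest in the Has1 state, which was also low in Bmp5 and Bmp7. All 6 ligands could be tested here: of 36 ligand and state pairs 12 were higher and 7 lower, where 11.6% of all gene and state pairs tested were higher and 8.01% lower. By state, 3 ligands were higher in the F3/Plau state (16.0% of all genes higher, 7.81% lower) and 5 in the Rbp4 state (7.03% and 8.29%). The Saa3 state had 2 higher (10.6% and 1.54%). The Cd248 state had 1 higher and 1 lower (11% and 12.2%), the Ces1d state 1 and 3 (5.48% and 5.42%), and the Has1 state 0 and 3 (19.2% and 12.8%). Bmp3 passed the filter through the Rbp4 state alone, so its high level there was a condition of its being tested. No cluster was named F3/Plau under 3 alternatives: both coarser clusterings and clustering on a random part of each cell's UMIs with the rest tested, where the Saa3 state was high in Bmp2 and Bmp5 under the last (2.09 and 2.45 on the log2 scale). Clusters and tests used the same cells, which makes p-values smaller than in independent cells.

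In the F3/Plau state, Bmp2 reached 993.97, 1128.5, 1281.8, 1135 and 894.97 CPM in collections 1A to 2C. The Rbp4 state, next in order, had 353.04, 301.5, 432.64, 344.34 and 381.98 CPM. There was no overlap with the F3/Plau state in any collection. Bmp2 was higher in the F3/Plau state by 2.68 ± 0.11 against the mean of the other states (edgeR adjusted p = 6.603e-38) and by 1.84 ± 0.17 against the Rbp4 state (adjusted p = 6.2958e-16). This state made up 10.38% ± 1.25 of the fibroblast-like cells and held 44.76% ± 3.0 of their Bmp2 UMIs.

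Below it, Bmp2 averaged 360 ± 40.3 CPM in the Rbp4 state and 343 ± 13.1 CPM in the Saa3 state, which did not differ beyond the spread (adjusted p = 0.55114). The fitted difference between them was -0.20 ± 0.19, of opposite sign to the CPM, since the TMM scaling factors of the 2 states differ in sign. Against the mean of the other states Bmp2 was higher in the Saa3 state (0.71 ± 0.13, adjusted p = 2.201e-05), but not with no mitochondrial limit (0.11, adjusted p = 0.7743) or once the top 5% by doublet score were left out (0.38, adjusted p = 0.05027). The Saa3 state was above the Has1 state (216 ± 45.1 CPM, difference 0.74, adjusted p = 0.00038201), and the Has1 state above the Ces1d state (109 ± 22.5 CPM, difference 1.10, adjusted p = 8.6989e-06). The Cd248 state had 98.804, 44.128, 69.416, 89.513 and 90.986 CPM and was lower than the mean of the others by -2.19 ± 0.17 (adjusted p = 8.422e-20). The Ces1d state was lower too, by -1.49 ± 0.17 (adjusted p = 4.903e-12). Between the Ces1d and Cd248 states the difference did not pass (0.58, adjusted p = 0.21661). The small excess of Bmp2 in the Rbp4 state over the mean of the others (0.47 ± 0.16, adjusted p = 0.03661) was lost without collection 2A or 2C (0.42 each, adjusted p = 0.1299 and 0.09797), and with each cell's UMIs split between clustering and testing the value was -0.30 (adjusted p = 0.2178).

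Bmp4 followed another order. It was at 1553.4, 1065.3, 1660.4, 1473.8 and 1659.6 CPM in the Rbp4 state and at 1181.5, 1213.5, 1374.4, 1406.6 and 1313.6 CPM in the Cd248 state. These ranges overlapped, and neither the step from the Rbp4 to the Cd248 state (0.22, adjusted p = 0.38713) nor any step down to the F3/Plau state passed (adjusted p = 0.084559 to 0.84016). The Ces1d state averaged 1104 ± 36.4 CPM, the Saa3 state 789 ± 207 and the F3/Plau state 638 ± 111. Pairs of states were contrasted only between neighbours in this order. Over wider steps, every collection of the Rbp4, Cd248 and Ces1d states lay above every collection of the F3/Plau state. Their lowest collections had 1065.3, 1181.5 and 968.08 CPM, against at most 781.81 CPM in the F3/Plau state. Against the mean of the other states Bmp4 was higher in the Rbp4 (0.95 ± 0.11, adjusted p = 6.791e-12), Cd248 (0.68 ± 0.09, adjusted p = 3.698e-09) and Ces1d states (0.58 ± 0.10, adjusted p = 1.692e-06).

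The Has1 state was lowest in Bmp4, at 177.69, 219.46, 247.28, 155.72 and 211.53 CPM. All 5 collections lay below the lowest of the F3/Plau state, 483.63 CPM. The difference was -2.23 ± 0.13 against the mean of the other states (adjusted p = 2.273e-28), and the F3/Plau state was above it by 1.71 ± 0.16 (adjusted p = 8.0684e-16). With 19.02% ± 4.09 of the fibroblast-like cells, the Has1 state held 5.328% ± 1.63 of their Bmp4 UMIs.

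**Figure D3:**
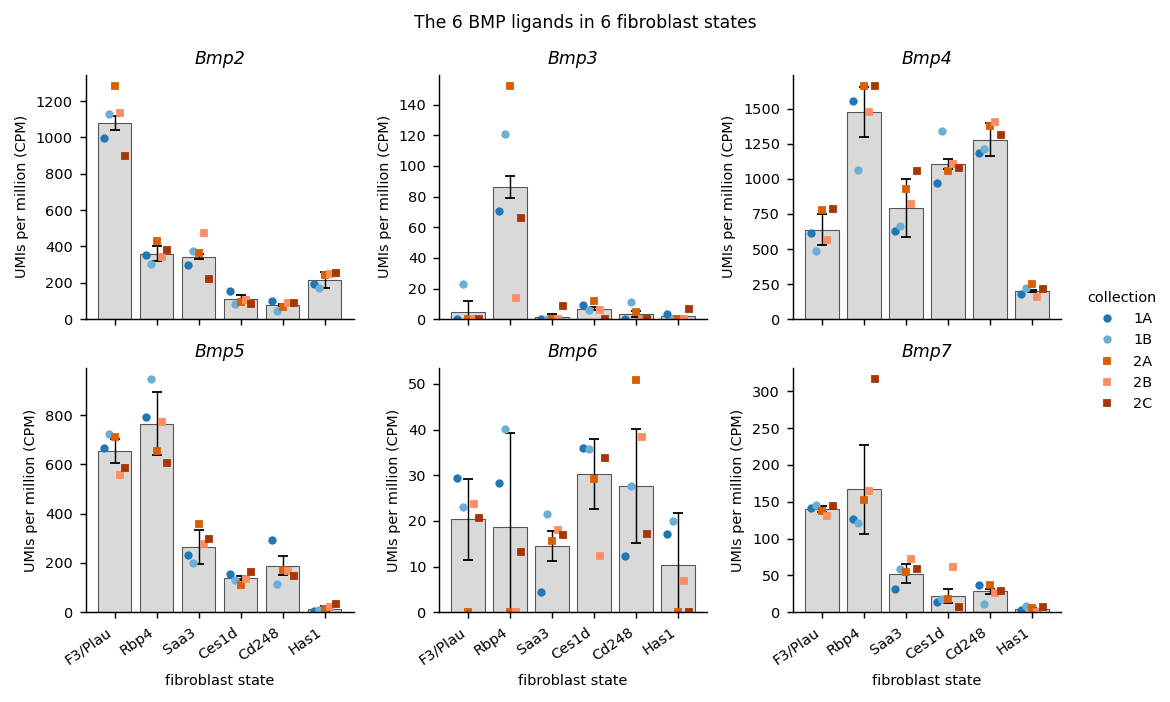
Levels of the 6 ligands in CPM (y axis, a separate scale per ligand) in the 6 fibroblast states (x axis). Points are the 5 collections, bars the mean of the 2 biological replicates and error bars its SD; Bmp2 is highest in the F3/Plau state (894.97 to 1281.8 CPM), and the Has1 state is lowest for Bmp4, Bmp5 and Bmp7.

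Bmp5 was shared by the Rbp4 and F3/Plau states. The Rbp4 state had 790.8, 944.69, 654.8, 771.33 and 605.89 CPM and the F3/Plau state 664.6, 721.61, 709.94, 555.7 and 586.36 CPM. The 2 states overlapped and did not differ beyond the spread (-0.08 ± 0.17, adjusted p = 0.78738). Against the mean of the other states, Bmp5 was higher by 2.19 ± 0.15 in the Rbp4 state (adjusted p = 8.094e-22) and by 2.29 ± 0.14 in the F3/Plau state (adjusted p = 1.23e-26). The Saa3 state followed at 265 ± 68.1 CPM, below every collection of the F3/Plau state (difference 1.31, adjusted p = 1.1445e-09) and itself above the mean of the others (0.72 ± 0.16, adjusted p = 0.0004561, but 0.47, adjusted p = 0.2473 within replicate 1 alone). In the Ces1d state Bmp5 was lower (-0.57 ± 0.19, adjusted p = 0.02927), a call lost without collection 2A, 2B or 2C (-0.48 to -0.56, adjusted p = 0.06043 to 0.1236) and of opposite sign with the UMIs split (0.20, adjusted p = 0.6559). In the Has1 state Bmp5 was very low: 14 UMIs gave 6.8341, 7.9804, 12.062, 20.311 and 34.119 CPM, and it was lower by -4.40 ± 0.26 (adjusted p = 2.201e-27).

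Bmp7, which can pair with Bmp2 or Bmp4 as a heterodimer, showed the same 2 states at the top. The Rbp4 state had 127.09, 120.6, 152.01, 165.28 and 316.12 CPM and the F3/Plau state 141.15, 145.86, 138.04, 130.06 and 144.02 CPM. Collection 2C of the Rbp4 state stood apart, and the states did not differ beyond the spread (0.01 ± 0.29, adjusted p = 0.99232). Bmp7 was higher than in the mean of the others in the Rbp4 state (2.33 ± 0.27, adjusted p = 2.814e-11) and in the F3/Plau state (2.32 ± 0.25, adjusted p = 2.413e-13). It was lower in the Has1 state, where 5 UMIs gave 4.93 ± 0.831 CPM (-3.42 ± 0.44, adjusted p = 2.48e-10). In the Ces1d state it was lower as well (-1.04 ± 0.35, adjusted p = 0.04225), but not without collection 1A, 1B, 2A or 2C (-0.74 to -0.94, adjusted p = 0.1398 to 0.2407), while without 2B the difference was -1.74 (adjusted p = 0.002033). The Saa3 state lay between, at 52.7 ± 12.5 CPM, and did not pass (0.62, adjusted p = 0.1955).

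Bmp3 was highest in the Rbp4 state, which had 30 of the 45 UMIs of fibroblast-like cells, at 70.608, 120.6, 152.01, 13.774 and 65.858 CPM. The highest collection of the Ces1d state, the next in order, had 11.653 CPM, just below the lowest of the Rbp4 state. The F3/Plau state reached 23.03 CPM in 1B, so its range overlapped that of the Rbp4 state, which had 13.774 CPM in 2B. The difference was 4.49 ± 0.59 against the mean of the other states (adjusted p = 1.933e-09) and 3.47 ± 0.72 against the Ces1d state (adjusted p = 0.00016252). Bmp3 passed the filter on low counts through the Rbp4 state alone, so a high level there was a condition of these tests. The other states had 1 to 6 UMIs each. Although kept out of the clustering, Bmp3 was among the 10 genes that led the Rbp4 state by fold.

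Bmp6, an activating ligand of the Bmp5 and Bmp7 subgroup, showed no state with a call. Its means ran from 30.4 ± 7.67 CPM in the Ces1d state to 10.3 ± 11.5 CPM in the Has1 state. Of the 6 states, 0 passed in either direction by edgeR and 0 had an unadjusted p under 0.05, on 5 to 28 UMIs each. DESeq2 called 0 as well, with no adjusted p for 4 of the 6, and no neighbouring pair differed beyond the spread. Fitted differences of -0.84 to 0.79 on the log2 scale were thus not detectable at this depth.

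Shares of the ligand UMIs repeat this division on another scale. The F3/Plau and Rbp4 states made up 10.38% and 10.3% of fibroblast-like cells. They held 33.18% ± 6.11 and 22.28% ± 5.12 of the Bmp5 UMIs, and 36.03% ± 12.4 and 24.95% ± 13.2 of the Bmp7 UMIs. Bmp4 lay mostly in the Cd248 (31.79% ± 1.53) and Ces1d states (24.79% ± 2.8), which were also the largest (23.49% and 22.7% of cells).

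**Figure D4:**
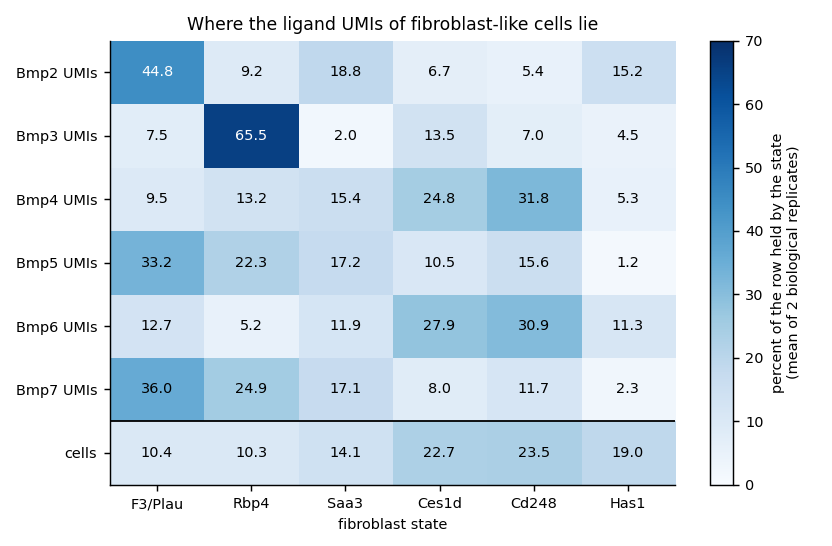
Percent of each ligand's fibroblast UMIs (rows) held by each of the 6 states (columns), mean of 2 biological replicates, with the states' share of cells in the last row. The F3/Plau state holds 44.8% of Bmp2 UMIs and the Rbp4 state 65.5% of Bmp3 UMIs with about equal shares of cells.

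Ligands were also seen together in the same cells. At 500 UMIs per cell, UMIs of at least 2 of the 6 ligands were in 92 of 303 cells of the Rbp4 state (30.4%) and in 86 of 321 of the F3/Plau state (26.8%). The Saa3 (8.55%), Cd248 (6.64%) and Ces1d states (6.24%) had fewer, and the Has1 state 5 of 578 cells (0.865%). At 1000 UMIs the shares were 53.3% in the Rbp4 and 52.6% in the F3/Plau state. That depth kept only 150 of 328 cells of the Rbp4 state, against 289 of 323 of the F3/Plau state. Without thinning the shares were 53.0% and 70.6%, with a lower depth per cell in the Rbp4 state (median 947 UMIs, against 1699). Single ligands at 500 UMIs gave the same picture: Bmp2 was in 121 of 321 cells of the F3/Plau state (37.7%, 95% Wilson interval 32.6 to 43.1%) and Bmp4 in 151 of 303 of the Rbp4 state (49.8%, 44.2 to 55.4%). In the Has1 state no cell of 578 had a Bmp5 or Bmp7 UMI after thinning, which allows a share of up to 0.519% at that depth; without thinning 2.38% of its cells had a Bmp5 UMI and 0.849% a Bmp7 UMI. Doublets were not reliably removed, and their part in these shares was not tested.

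Markers of other cell types moved with some states. The 8 smooth muscle markers summed to 1335.4 and 1529.6 CPM in the Rbp4 state, against 260.84 to 542.81 CPM in the other 5. The list for interstitial cells of Cajal summed to 1102.3 and 882.75 CPM in the F3/Plau state, to 511.37 to 655.24 CPM in the Rbp4 and Saa3 states and to 55.222 to 172.43 CPM in the rest, with none of its 4 genes at 0. The 7 pericyte markers summed to 304.15 and 282.54 CPM in the Ces1d state, against 39.121 to 182.47 CPM in the other 5. Epithelial markers summed to at most 54.341 CPM in any state. The part of such cells in the ligand levels was not tested.

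Receptors were spread over several classes. Of 11 listed receptor genes 5 were tested, and 4 were higher in fibroblast-like cells, none lower, where 35.1% of all genes were higher (median of the list 1.55 on the log2 scale, all genes 0.184). They were Bmpr1a, Acvr1 and Acvrl1, type I receptors, and Bmpr2, a type II receptor. Bmpr1a reached 94.5 CPM in smooth muscle-like cells and averaged 70.7 CPM in fibroblasts. In blood endothelial-like cells Bmpr2 (169 CPM), Acvrl1 (315 CPM) and its co-receptor Eng (574 CPM) were higher, 3 of 5 tested (30.7% of all genes). The same 3 were higher in lymphatic endothelial-like cells (20.7% of all genes). Enteric glia-like cells had 4 of 5 higher (24.1% of all genes), with a larger median than fibroblast-like cells (2.52). Between fibroblast states 7 receptor genes were tested, and counts over so few genes say little. The F3/Plau state (16.0% of all genes higher, 7.81% lower) and the Rbp4 state (7.03% and 8.29%) had no call among them. The Has1 state had 1 higher and 2 lower (19.2% and 12.8% of all genes). The lower ones were Acvrl1 (-0.66 ± 0.18, edgeR adjusted p = 0.002497) and Eng (-0.99 ± 0.30, adjusted p = 0.006045). The Saa3, Cd248 and Ces1d states had 1 higher each and none lower, which in the Saa3 state was Acvr1 (1.06 ± 0.36, adjusted p = 0.04151).

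Secreted antagonists differed between the states. Grem1 encodes Gremlin 1, which binds Bmp2 and Bmp4. It was at 424 and 465 CPM in the Ces1d state (replicates 1 and 2), 330 and 279 CPM in the Cd248 state and 390 and 296 CPM in the Has1 state. The F3/Plau state had 9.99 and 3.53 CPM and the Rbp4 state 0 and 25.6 CPM. The 2 states with the highest Bmp5 and Bmp7 thus lay below all others in Grem1, by -4.17 ± 0.52 in the F3/Plau state (edgeR adjusted p = 1.256e-10) and -2.96 ± 0.53 in the Rbp4 state (adjusted p = 7.045e-06), while Grem1 was higher in the Ces1d state by 2.80 ± 0.18 (adjusted p = 6.696e-24). Bmp4 did not follow this pattern: it was higher together with Grem1 in the Cd248 state (0.68 for Bmp4, 1.98 for Grem1) and the Ces1d state (0.58 and 2.80), while in the Has1 state Bmp4 was lower and Grem1 higher (-2.23 and 2.48). Grem1 was also among the leading genes of the Ces1d cluster.

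Nbl1 and Twsg1 were higher in the states low in Grem1. Nbl1, a secreted antagonist of the DAN family like Grem1, was at 1128 and 1230.5 CPM in the Rbp4 state, against 230 to 512 CPM in the replicates of the other states (1.79 ± 0.12, adjusted p = 2.787e-23). Twsg1, an extracellular modulator that binds BMPs and chordin, was at 523 and 395 CPM in the F3/Plau state (1.51 ± 0.13, adjusted p = 5.422e-17) and at 390 and 359 CPM in the Rbp4 state (0.83 ± 0.16, adjusted p = 6.584e-05). Of 15 listed antagonists 5 were tested between states. In the F3/Plau state 3 were higher and 1 lower (16.0% and 7.81% of all genes), and in the Rbp4 state 2 and 1 (7.03% and 8.29%). In fibroblast-like cells as a whole 4 of 7 tested antagonists were higher and none lower (35.1% and 13.5% of all genes). Smooth muscle-like cells had 6 of 7 higher (18.3% of all genes), with a larger list median (3.13, against 2.81 in fibroblast-like cells).

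Some BMP target genes were higher in the F3/Plau and Saa3 states. Id1, a direct target of BMP signalling, was at 576 and 847 CPM in the F3/Plau state and 346 and 414 CPM in the Saa3 state. It was at 174 and 282 CPM in the Rbp4 state and at 69.9 and 97.8 CPM in the Has1 state. Id1 was higher in the F3/Plau (2.24 ± 0.13, adjusted p = 6.778e-28) and Saa3 states (1.17 ± 0.14, adjusted p = 5.02e-11), lower in the Has1, Cd248 and Ces1d states (-1.53, -1.17 and -0.73), and without a call in the Rbp4 state (0.01 ± 0.18, adjusted p = 0.9795). Of 8 tested target genes, 4 were higher and none lower in the F3/Plau state (median 0.917 on the log2 scale, all genes 0.0118), where 16.0% of all genes tested were higher and 7.81% lower. Bambi, Id2, Id4 and Atoh8 did not pass there. The Saa3 state had 5 higher and none lower (10.6% and 1.54% of all genes), and the Rbp4 state 1 and 1 (Id2 higher, Smad7 lower; 7.03% and 8.29%). The Cd248 state had none higher and 4 lower (11% and 12.2%), and the Has1 state 2 and 5 (19.2% and 12.8%). Target genes respond to signals other than BMPs as well, and no link between ligand and target levels was tested.

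**Figure D5:**
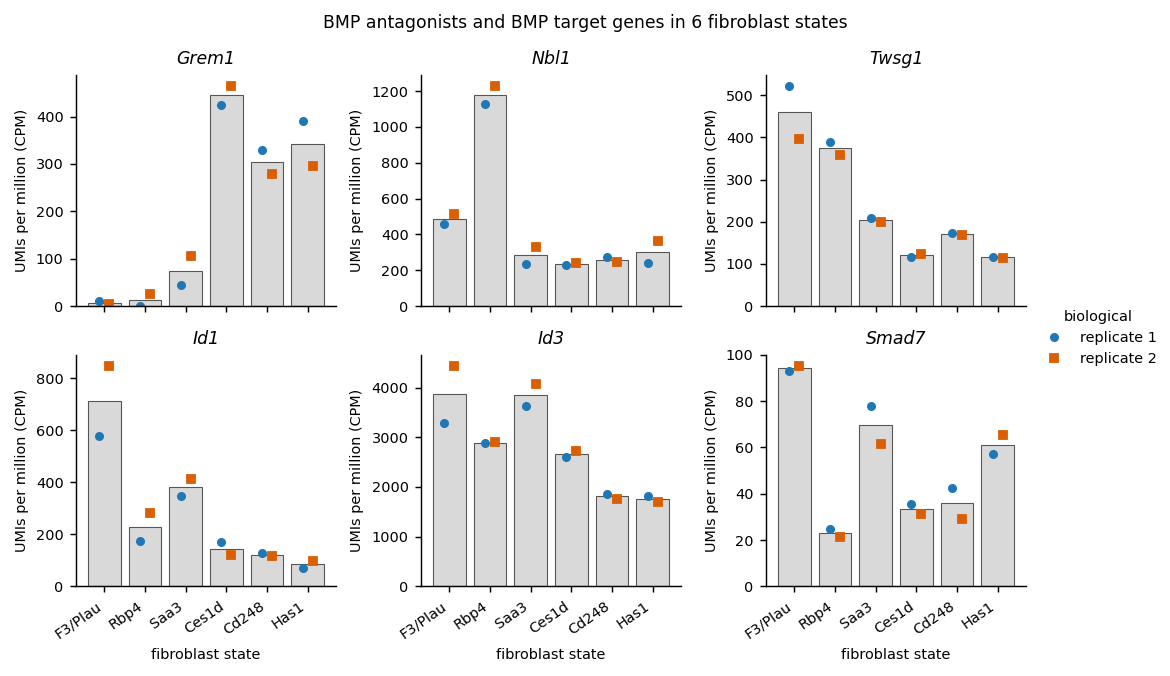
Levels of the antagonists Grem1, Nbl1 and Twsg1 and of the target genes Id1, Id3 and Smad7 in CPM (y axis, a separate scale per gene) in the 6 fibroblast states. Bars are means and points the 2 biological replicates; Grem1 reaches at most 25.6 CPM in the F3/Plau and Rbp4 states and at least 279 CPM in the Ces1d, Cd248 and Has1 states.

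Enzymes that cut BMP precursors or antagonists were among the tested genes too, but had not been kept out of the clustering. Furin, a convertase that releases the mature ligand, was at 53.2 CPM in the F3/Plau state and passed there (0.99 ± 0.33, adjusted p = 0.01845). Pcsk5, a related convertase, was at 470 CPM in the Has1 state (2.39 ± 0.14) and at 49.7 CPM in the F3/Plau state (-1.43 ± 0.26). Pcsk6, of the same list, was higher in the Rbp4 state (0.90 ± 0.24) and lower in the Has1 state (-0.83 ± 0.23). Of 4 enzymes tested, the F3/Plau state had 1 higher and 2 lower (16.0% and 7.81% of all genes). The Rbp4 state had 1 and 1 (7.03% and 8.29%), and the Has1 state 2 and 1 (19.2% and 12.8%). Bmp1, despite its name a protease that cuts chordin and not a BMP ligand, was lower in the F3/Plau state at 37.6 CPM (-1.47 ± 0.29). Of the other 15 BMP and GDF ligands listed, only Gdf15, a stress-induced and distant family member, was tested between states, at 500 CPM in the F3/Plau state and 485 CPM in the Saa3 state.

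Genes with the most similar pattern were named by Pearson r of log2(CPM + 10) over 15 groups, the 9 non-fibroblast classes and the 6 states, among 12738 genes. These groups share libraries, and the values are descriptions. For Bmp2 they were Echdc2 (0.91), Gss (0.89) and the Wnt ligand Wnt5a (0.87). For Bmp4 they were the secreted protease Htra1, the microfibril gene Mfap2 and Aox1 (0.96 each). Bmp5 came with Steap2 (0.96), the chemokine Cxcl14 (0.95) and Rerg (0.94). Bmp6 came with Tle6 (0.94), D630033O11Rik (0.93) and Cercam (0.92), and Bmp7 with Gm26682 (0.96), Fam162b (0.93) and the calcium channel gene Cacna1g (0.93). Some of these genes were sparse, so their r rests on few molecules. Gss peaked at 19.0 CPM in the F3/Plau state. Gm26682, Steap2 and Tle6 peaked at 21.0, 16.7 and 27.3 CPM in the Rbp4 state. Bmp3 was under 10 CPM in every class, though it reached 86.2 CPM in the Rbp4 state and so entered the comparison. It came with Wif1 (0.97), Gm6569 (0.96) and Bcmo1 (0.96). These peaked in the Rbp4 state as well, at 75.4, 12.6 and 12.7 CPM, so their r rests largely on that state. With a pseudocount of 1 the first gene stayed the same for Bmp2 and Bmp4. It changed for Bmp3, Bmp5, Bmp6 and Bmp7 (Rbm46, Cxcl14, Tapbp and Wnt5b). Among the ligands themselves r was highest for Bmp4 and Bmp6 (0.91), then for Bmp4 and Bmp5 (0.87), Bmp5 and Bmp7 (0.85) and Bmp2 and Bmp5 (0.81).

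Classes too small to test gave further values. The unnamed cluster of 29 cells led by mitotic genes had Bmp4 at 626.02, 723.59, 1160.5, 968.1 and 284.23 CPM, on 56 UMIs. It raised 6 fibroblast markers and was left unnamed for its mitotic genes. Its values in 1A and 1B rest on 5 UMIs in 4 cells and 1 UMI in 1 cell. The 33 venular-like endothelial cells had Bmp4 at 120.46, 180.67, 380.46, 123.27 and 1074.1 CPM on 30 UMIs, with collection 2C far above the rest. Among epithelial-like cells 3 UMIs of Bmp4 and 2 of Bmp2 were found in 22 cells.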

How the data were processed

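Drop-seq UMI counts per gene and barcode were used as deposited by the authors in 5 tables, 1 per collection. Per the submitters' processing notes, STAR 2.6 and mm10 were used; the counting of overlapping genes was not given in the sources used here. The members, lists and alternatives were chosen with earlier results of these data known. Barcodes with under 300 genes (1263) or over 10% mitochondrial UMIs (667) were left out, with 23 doublet calls of 6005. The doublet caller marked too few cells to be taken as having worked. Clusters came from scanpy 1.11.5 and leidenalg 0.10.2 without 51 BMP pathway genes, and were named where at least 3 listed markers were raised 2-fold. UMIs were summed per biological replicate and class (73009 to 2364860 UMIs) or state (120566 to 548341). edgeR 4.0.16 in R 4.3.3 (TMM, quasi-likelihood F test) compared each group with the mean log level of the others, with the replicate as a block, since sums with the same number come from the same biological replicate, per the series' design text. The correlation of replicate differences between groups was -0.0235 to 0.142 for classes and 0.0351 to 0.0877 for states. P-values were adjusted by Benjamini-Hochberg over 6887 genes (classes), 6903 (states) or 3023 (endothelial clusters), with 0.05 as the threshold. The fits were tested on simulated data. Alternatives were DESeq2 1.42.0, other scaling and filters, other limits on barcodes, other clusterings and leaving out collections or replicates. All 6 ligands are named throughout, with at most 6 genes per pathway list (highest mean CPM in any class). The 3 genes most like a ligand are named for each ligand. For Bmp3 this went beyond the plan, which asked for 10 CPM in some class. Bmp3 as a leading gene and the lymphoid clusters were named after their values were seen.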

Additional observations from a re-analysis of the deposited data

Results flagged for a closer look

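In 58 groups of 5 collections, 7 held a collection that stood apart from the other 4. Chance flags about 1 in 20 such groups where values are continuous. Several of the 7 rest on a few UMIs, for which this rate need not hold. Among classes, Bmp4 in lymphatic endothelial-like cells was at 116.11 CPM in collection 2C (7 UMIs). In the lymphoid class Bmp2 was at 154.75 CPM in 1B (23 UMIs), Bmp5 at 62.6 CPM in 2A (5) and Bmp7 at 52.074 CPM in 2B (3). Among states, collection 2B of the Ces1d state was low in Bmp6 at 12.35 CPM (2 UMIs) and high in Bmp7 at 61.748 CPM (10 UMIs). In the Rbp4 state Bmp7 was at 316.12 CPM in 2C (24 UMIs).

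Barcodes left out by the limits on genes, mitochondrial UMIs and doublets also held ligand UMIs. In left-out barcodes Bmp4 was at 244.5 CPM, Bmp2 at 94.433 CPM and Bmp5 at 54.903 CPM, against 440.98, 163.23 and 128.5 CPM in retained cells. Bmp7 was at 17.569 CPM, Bmp6 at 3.6602 CPM and Bmp3 at 8.0524 CPM in left-out barcodes, against 26.27, 10.331 and 4.821 CPM in retained cells. Of these only Bmp3 was higher in left-out barcodes, on 11 UMIs.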

How the results depend on the processing

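Of 37 ligand calls between classes and states, 25 kept their direction and call under every alternative that gave a value, and 12 did not; some states were not found under some settings, and their calls then had no value: F3/Plau under 3, Ces1d under 5 (a limit of 200 genes, no mitochondrial limit, the top doublet scores left out and both coarser clusterings) and Cd248 under 1, the UMI split. Without the replicate block, 10 class pairs were higher and 8 lower, and 11 state pairs higher and 5 lower. Leaving out collections or replicates gave 8 to 10 higher and 3 to 8 lower class pairs, and 10 to 12 higher and 5 to 8 lower state pairs. These class counts take in ligands with a class at 0 UMIs, which were Bmp2 and Bmp5 within either replicate alone. Only 7 of the 18 class calls had a value there: 3 were kept without replicate 1 and 5 without replicate 2. The Bmp2 and Bmp5 class calls were thus not assessed within 1 replicate. Endothelial clusters stayed at 0, with no value without replicate 1. Lower class pairs fell to 5 with a limit of 200 genes and to 2 with each cell's UMIs split at random, part for clustering and the rest for testing, and lower state pairs to 4 with resolution 0.8 of the main value and to 4 with the split, where fewer pairs were tested. Endothelial clusters gave 1 higher and 1 lower call with 500 genes, and 1 lower call each with 200 genes and with no mitochondrial limit; clusters were redrawn there. Reversed values were Bmp4 in dendritic cell-like cells with no mitochondrial limit (0.70), and, with the split, Bmp5 in the Ces1d state (0.20) and Bmp2 in the Rbp4 state (-0.30); the cause was not tested. Ligands with a group at 0 UMIs gave no per-gene value under that setting. With 49 UMIs of Bmp3 and 105 of Bmp6, depth limits what can be said of both.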
